A study of Mus musculus with 6 samples.

Results

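The zinc finger genes Zfp800 to Zfp999 were examined in RNA of the mouse cortex at 6 and 16 months. The annotation of the mouse genome (GENCODE for GRCm38) held 91 genes named Zfp with a number in this range and no letter after it, 90 of them were listed in the count tables of 38355 genes, and 69 of the 17120 genes that passed the filter on low counts were members. The naming rule itself uses no measured value. The set was, however, selected on these same samples, since it was proposed after the low counts of Zfp990 at 16 months had been seen, so that the values of Zfp990 and the counts of members below are descriptions.

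Polyadenylated RNA of dissected cortical hemispheres from C57BL/6 wild-type mice, an inbred laboratory strain, was sequenced for 3 animals of 6 months and 3 animals of 16 months, without any transgene or treatment. A note on housing among the labels speaks of 3 months for the younger mice; all titles and age fields say 6 months, which was used here. Each sample is whole cortical tissue, in which fewer cells of a type and less RNA per cell cannot be told apart.

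Most of these genes encode proteins of the Krüppel-associated box (KRAB) family. In such a protein an N-terminal KRAB domain binds the corepressor TRIM28, which recruits the histone methyltransferase SETDB1 and heterochromatin protein 1, while an array of C2H2 zinc fingers in the C-terminal part selects the DNA sequence that is bound. Many KRAB zinc finger proteins silence endogenous retroviruses and other transposable elements. Their genes arise by tandem duplication and lie in clusters, and the young clusters on mouse chromosomes 2 and 4 are known for repressing retroviral elements in embryonic stem cells. A smaller number of genes with these names encode zinc finger proteins without a KRAB domain.

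When the coding sequences were translated, 79 of 90 coding members matched a KRAB pattern and 11 did not. The pattern was sought before the first finger, or over the whole protein where no finger was found. The number of C2H2 patterns per protein was between 0 and 22, with a median of 11. Among the 11 genes without the pattern were Zfp800, Zfp827, Zfp830 and Zfp831. Chained at gaps of 500 kb or less, members formed 13 chromosomal clusters of at least 2 genes, of which the cluster of Zfp990 on chromosome 4 with 16 members and that of Zfp945 on chromosome 17 with 11 members were the largest.

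How alike the members of the chromosome 4 cluster are can be read from the start of their coding sequence, which encodes the N-terminal part of the KRAB domain. The first 120 coding bases of Zfp990 are shown with the best matching 120 coding bases of genes from the same cluster, all 5′ to 3′ on the coding strand of GENCODE transcripts (GRCm38), and capitals mark the bases that differ from Zfp990.
Zfp990: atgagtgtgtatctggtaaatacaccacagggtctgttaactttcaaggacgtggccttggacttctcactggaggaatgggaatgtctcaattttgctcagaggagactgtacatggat
Gm21411: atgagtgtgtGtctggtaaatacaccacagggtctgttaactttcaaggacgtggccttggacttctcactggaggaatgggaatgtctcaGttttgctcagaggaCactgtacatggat
Zfp986: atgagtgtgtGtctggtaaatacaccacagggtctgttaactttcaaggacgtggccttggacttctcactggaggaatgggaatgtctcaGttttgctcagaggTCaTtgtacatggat
Zfp984: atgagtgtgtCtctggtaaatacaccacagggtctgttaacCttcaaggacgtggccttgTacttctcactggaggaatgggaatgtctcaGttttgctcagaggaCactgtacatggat
Zfp992: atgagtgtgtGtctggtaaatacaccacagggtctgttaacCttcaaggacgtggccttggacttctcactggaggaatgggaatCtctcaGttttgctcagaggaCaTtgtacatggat
Zfp979: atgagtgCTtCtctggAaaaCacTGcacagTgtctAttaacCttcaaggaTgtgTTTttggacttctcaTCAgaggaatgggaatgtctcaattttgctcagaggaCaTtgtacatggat

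Gm21411, a protein-coding gene of the same region without a Zfp name, differed from Zfp990 at 3 of these bases, Zfp986 and Zfp984 at 5, Zfp992 at 6 and Zfp979 at 19. The stretches of Zfp991, Zfp992 and Zfp993 were identical to each other, as were those of Zfp986, Zfp987 and Zfp988. Zfp933, at the far end of the cluster, had no such match, with 60 of 120 bases differing in its best window. That window did not lie wholly within its coding sequence. A read from a stretch of this kind can align to several genes, and reads without a unique position were not counted in these tables. For every 100 counted reads the summaries list between 43.4 and 51.4 alignments that were not unique, over all genes.

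A pair of values describes how far this reaches for each member. Both used its main transcript, the one with the longest coding sequence. The share of the 100-base words of this transcript that occur in no other annotated gene's transcript was 98.4% for Zfp990 but 30.0% for Zfp986. With words of 50 bases these shares were 73.0% and 13.1%. The share of its main transcript that matched another gene at 97% identity or more over at least 100 bases was 20.4% for Zfp990, on Gm21411, Zfp986 and Zfp981, and 99.0% for Zfp986, mainly on Zfp987 and on Gm8935, a gene on chromosome 3. Searched from the other gene, Zfp989 also matched Zfp990 over 210 bases and Zfp987 matched it over 102 bases. The counts of Zfp990 therefore come mostly from sequence of its own, whereas Zfp986 could be counted only over the smaller part of its transcript.

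Zfp990 (ENSMUSG00000078503, chr4:145510759-145539188, plus strand, 13 finger patterns) gave 29, 18 and 22 reads in the 6-month replicates 1, 2 and 3, and 0, 1 and 1 reads in the 16-month replicates 1, 2 and 3. As CPM (counts scaled to a common library size after TMM normalization) these were 0.619, 0.600 and 0.524 at 6 months and 0, 0.0319 and 0.0293 at 16 months. All 3 older samples lay below all 3 younger ones, and none of the older samples reached the floor of 3 counts. The mean level was 0.581 ± 0.0499 CPM at 6 months and 0.0204 ± 0.0177 CPM at 16 months (SD, n = 3 each). From the summed 69 and 2 reads, the level at 6 months was 28.6 times that at 16 months, with an exact conditional 95% interval of 7.63 to 241 that covers counting error only. The fitted log2 fold change of 16 over 6 months was -4.62 (SE 0.50), a value that depends on the small count that the fit adds to each sample and is no bound. Zfp990 was thus nearly absent from the older samples.

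Zfp986, which shares a stretch of 135 bases with Zfp990 at 97.8% identity, gave 0, 1 and 3 reads at 6 months and 0, 1 and 1 reads at 16 months. No sample exceeded the floor, and no difference between the ages was detectable at this depth. Zfp987 was at 0 in all 6 samples, which allows up to 3 reads per sample, or between 0.0640 and 0.1 CPM. Gm21411 gave 2 reads in 1 of the 6-month samples and none elsewhere. Zfp990 summed with Zfp986, Zfp981 and Gm21411, which share near-identical stretches with it, gave 34, 19 and 29 reads at 6 months and 2, 5 and 4 reads at 16 months. Zfp987 and Zfp989 also matched Zfp990, but with 0 reads in all 6 samples they leave this sum unchanged.

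A pair of genes on either side of Zfp990 that carry no Zfp name had lower counts at 16 months as well, and were picked out after their values had been seen. Gm13230, a transcribed pseudogene at chr4:145446740-145450888, gave 16, 3 and 12 reads at 6 months and 0, 2 and 0 reads at 16 months. Gm13212, a protein-coding gene at chr4:145585166-145625345, gave 12, 9 and 13 reads at 6 months and 2, 2 and 1 reads at 16 months. In CPM the ages did not overlap for either gene. Both fell under the filter on low counts and were not tested. The ratio of 6 to 16 months from summed reads was 12.9 (exact 95% interval 3.27 to 111) for Gm13230 and 5.65 (2.20 to 18.5) for Gm13212. Together with Zfp990 they gave 57, 30 and 47 reads at 6 months and 2, 5 and 2 reads at 16 months. Between the pair lie, beside Zfp990, 7 other annotated genes, of which only the pseudogene Smarca5-ps gave more than 3 reads in any sample. Smarca5-ps gave 1, 6 and 7 reads at 6 months and 4, 2 and 3 reads at 16 months, and the ages overlapped.

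**Figure D1:**
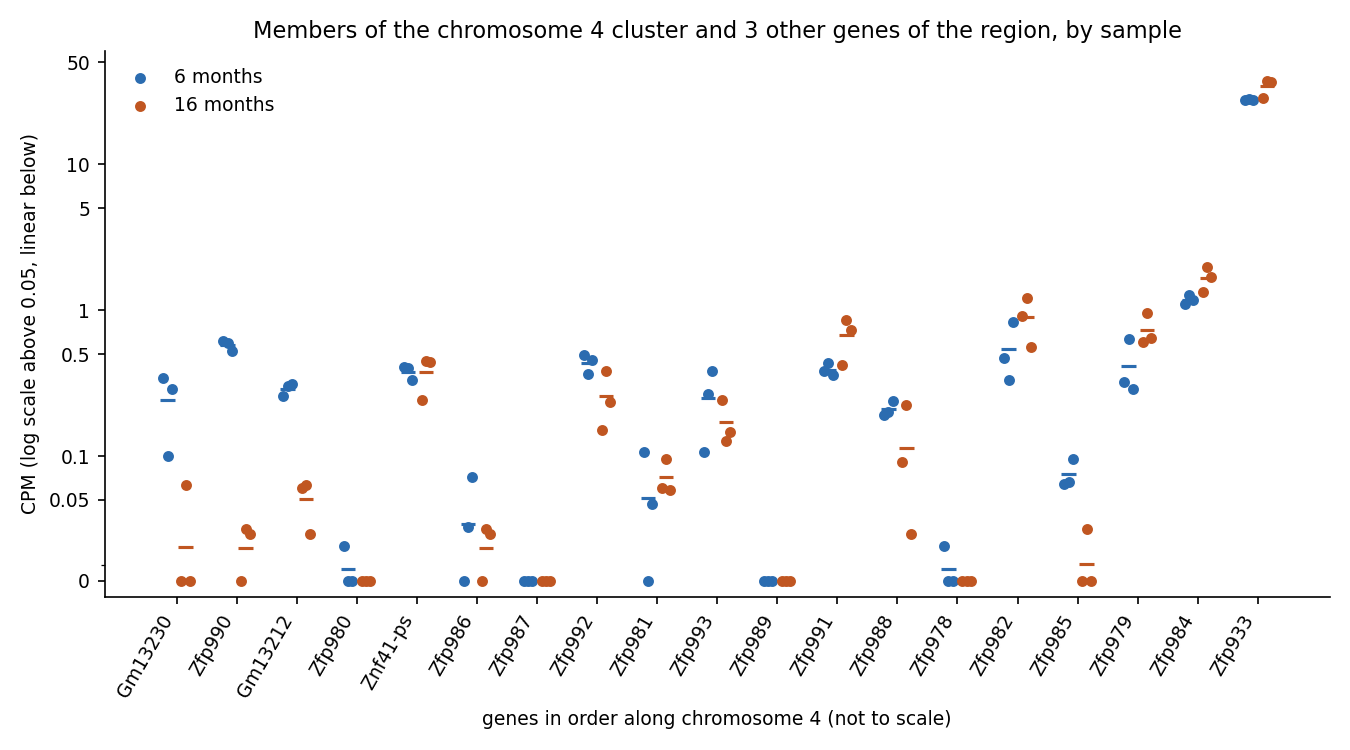
CPM (vertical axis, logarithmic above 0.05 and linear below) of the 16 members of the chromosome 4 cluster and of Gm13230, Gm13212 and Znf41-ps, in gene order along the chromosome, with 1 point per sample and a dash at the mean of each age (n = 3). Zfp990, Gm13230 and Gm13212 at the left end lay lower at 16 months, while Zfp991, Zfp982, Zfp979, Zfp984 and Zfp933 toward the right end had higher means at 16 months. Zfp988 and Zfp985, which lie between these genes and had few reads, had lower means at 16 months.

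The cluster spans chr4:145510759-147848366, and 7 of its 16 members passed the filter. Of these only Zfp990 was called, that is, had an adjusted p under 0.05, where 1.67% of all tested genes did so. This call belongs to the gene from which the set was proposed and is no separate result. Of the other 6, 5 had a higher fitted level at 16 months. Zfp992 was the exception, with 23, 11 and 19 reads at 6 months and 5, 12 and 8 reads at 16 months (log2 fold change -0.80, SE 0.34, edgeR quasi-likelihood test adjusted p = 0.265). Its ages overlapped in CPM. Fitted without the filter on low counts, 14 members of the cluster had 8 negative and 6 positive log2 fold changes. Their median was -0.58, against 0.50 for the 7 that passed the filter.

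Further along the chromosome the fitted differences of members that passed the filter pointed the other way. Zfp991 gave 18, 13 and 15 reads at 6 months and 14, 27 and 25 reads at 16 months (log2 fold change 0.78, SE 0.30, edgeR adjusted p = 0.210). Zfp982 gave 22, 10 and 35 reads at 6 months and 30, 38 and 19 reads at 16 months (0.65, SE 0.36, edgeR adjusted p = 0.385). Both overlapped between the ages.

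Zfp979 gave 15, 19 and 12 reads at 6 months and 20, 30 and 22 reads at 16 months (log2 fold change 0.90, SE 0.33, edgeR adjusted p = 0.202), again with overlap in CPM. Zfp984 gave 52, 38 and 49 reads and 44, 62 and 58 reads (0.50, SE 0.18, edgeR adjusted p = 0.186). Zfp933 gave 1294, 845 and 1157 reads and 947, 1167 and 1251 reads (0.30, SE 0.093, edgeR adjusted p = 0.148). In Zfp984 and Zfp933 all 3 older samples lay above the younger ones in CPM, but for Zfp933 by little in 16-month replicate 1, at 28.6 CPM against 28.2 CPM in the highest younger sample. Zfp933 (chr4:147822986-147848366) had by far the most reads of the cluster, at 27.8 ± 0.333 CPM at 6 months and 34.1 ± 4.84 CPM at 16 months (SD, n = 3 each), whereas the other 15 members had means between 0 and 1.42 CPM over all samples.

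The remaining members of the cluster were not tested. Zfp993 gave 5, 8 and 16 reads at 6 months and 8, 4 and 5 reads at 16 months. Zfp988 gave 9, 6 and 10 reads and 3, 7 and 1 reads. Zfp985 gave 3, 2 and 4 reads and 0, 1 and 0 reads. These 3 genes had lower means at 16 months, of which only those of Zfp985 did not overlap, at counts close to the floor. Zfp981 had at most 5 reads in any sample, Zfp980 and Zfp978 had 1 read in 1 sample of 6 months each, and Zfp989 had none.

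Since Zfp991, Zfp992, Zfp993 and the pseudogene Znf41-ps share long near-identical stretches, their reads were also summed. Zfp991 matched Zfp992 over 88.5% and Znf41-ps over 85.6% of its transcript, and only 26.2% of its 100-base words were its own. The 4 genes together gave 65, 44 and 64 reads at 6 months and 35, 57 and 53 reads at 16 months, or 1.46 ± 0.0698 and 1.48 ± 0.387 CPM (SD, n = 3 each). The sums of the ages thus differed by less than the spread between samples. Zfp984, in turn, shares 57.4% of its transcript with Gm13212. The pair gave 1.47 ± 0.101 CPM at 6 months and 1.72 ± 0.327 CPM at 16 months, a ratio of 16 to 6 months of 1.18 (exact 95% interval 0.946 to 1.46), against 1.42 (1.13 to 1.79) for Zfp984 alone, counting error only.

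All 14 members of the cluster other than Zfp990 and Zfp933 together gave 3.61 ± 0.324 CPM at 6 months and 4.61 ± 1.13 CPM at 16 months (SD, n = 3 each). The sum was highest in 16-month replicate 2, at 5.90 CPM. In the 1 Mb on either side of the cluster, 4 genes before and 24 genes after it were tested, and none was called. Their log2 fold changes ranged from -0.12 to 0.52 before the cluster and from -0.40 to 0.55 after it.

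Over all 69 tested members, 2 were called and both were lower at 16 months, Zfp990 and Zfp970, against 1.67% of all tested genes called in either direction, 0.888% called lower and 0.783% called higher. The set was proposed from the low counts of Zfp990, so its call is no separate result. Outside the cluster of Zfp990, 1 of 62 tested members was called. In 10 members the unadjusted p of the edgeR test was under 0.05, as in 17.4% of all tested genes. In 4 members every older sample lay below every younger one (Zfp990, Zfp970, Zfp945 and Zfp971) and in 4 every older sample lay above (Zfp984, Zfp933, Zfp866 and Zfp827), or 5.80% each, where 11.5% and 12.2% of all tested genes did so. The median log2 fold change of the tested members was -0.06, with 43 of 69 below 0, against 0.00 over all tested genes and -0.01 over the 267 tested genes of Zfp1 to Zfp799. With offsets for the GC content and length of each gene the median of the members was 0.00, and 5 members were called higher and 4 lower, where 7.6% of all tested genes were called higher and 7.04% lower. Of Zfp1 to Zfp799, 1 gene was called lower and 0 higher in edgeR, 24 had an unadjusted p under 0.05, and DESeq2's Wald test, which called 2.67% of all genes it gave an adjusted p, called 1 as well.

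**Figure D2:**
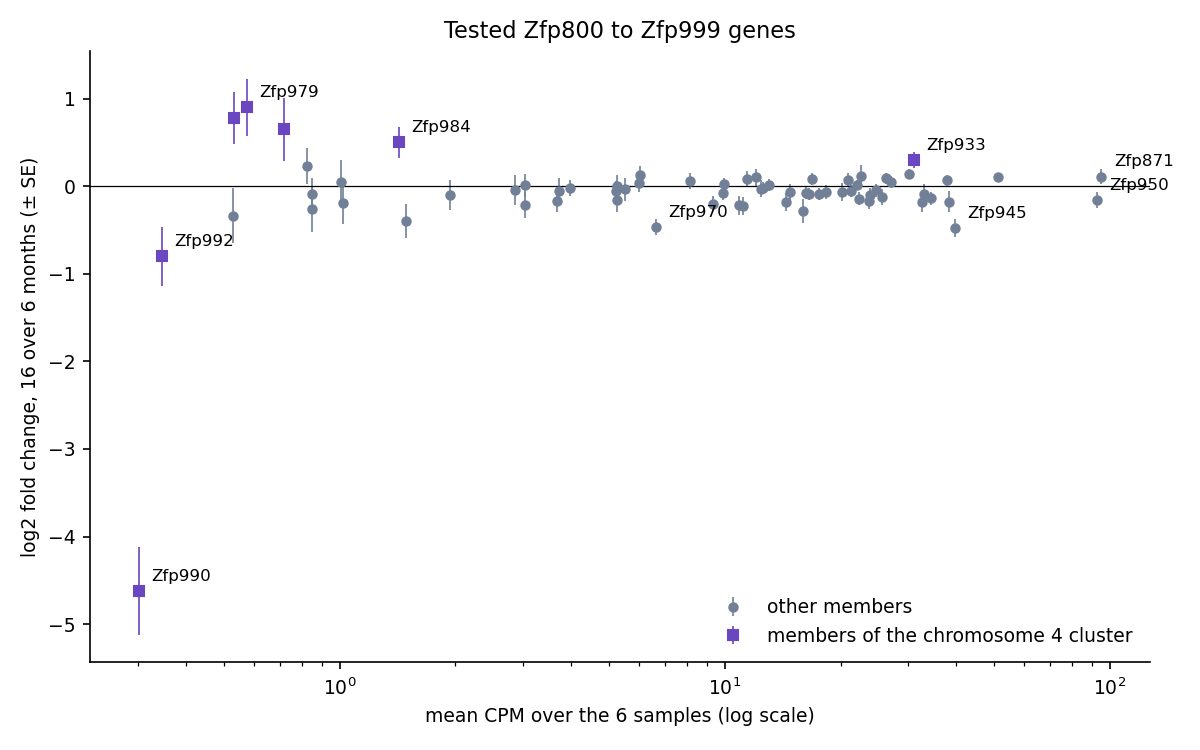
Fitted log2 fold change of 16 over 6 months (vertical axis, with SE) against the mean CPM of the 6 samples (horizontal axis, log scale) for the 69 tested members. Zfp990 stands at -4.62 at the low end of expression, other members of the chromosome 4 cluster (squares) reach 0.90, and members outside that cluster (circles) lie close to 0.

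Zfp970 (chr2:177464733-177478129, plus strand, 14 finger patterns) was the other called member. It gave 330, 238 and 340 reads at 6 months and 189, 182 and 176 reads at 16 months. In CPM these were 7.04, 7.93 and 8.11 against 5.70, 5.81 and 5.15, without overlap. Its level fell by 0.47 on the log2 scale (SE 0.091, edgeR quasi-likelihood test adjusted p = 0.0352). The call was lost, at log2 fold changes between -0.53 and -0.41 over the 6 fits that each left out 1 sample, without any one of the 6-month replicates 1, 2 and 3 or 16-month replicate 3, with an adjusted p up to 0.205, and was kept without 16-month replicate 1 or 2.

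Zfp970 lies in a second young cluster, on chromosome 2, with Zfp972, Zfp971 and Zfp931. Its first 120 coding bases are identical to those of Zfp968, a member that had no read in any sample, and differ at 1 base, in capitals, from those of Zfp971 (coding strand, GENCODE transcripts, GRCm38).
Zfp970: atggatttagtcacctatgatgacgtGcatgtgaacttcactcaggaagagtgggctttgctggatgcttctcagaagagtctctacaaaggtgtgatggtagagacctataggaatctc
Zfp971: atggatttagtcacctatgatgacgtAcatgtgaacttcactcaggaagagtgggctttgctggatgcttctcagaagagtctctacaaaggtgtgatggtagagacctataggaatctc

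Elsewhere the 2 genes differ more, and 80.6% of the 100-base words of Zfp970 and 86.2% of those of Zfp971 were their own. Zfp971 gave 449, 292 and 442 reads at 6 months and 265, 297 and 293 reads at 16 months (log2 fold change -0.20, SE 0.084, edgeR adjusted p = 0.264), without overlap in CPM but by a small margin, 9.47 against 9.58 CPM for the nearest pair of samples. Zfp931 had a log2 fold change of -0.28 (SE 0.14, edgeR adjusted p = 0.316) and overlapped. Summed over its members, this cluster was at 35.4 ± 1.40 CPM at 6 months and 28.9 ± 4.14 CPM at 16 months (SD, n = 3 each). Another cluster on chromosome 2, with Zfp965, Zfp966, Zfp968 and Zfp969, gave 0 reads in all 6 samples. Further along this chromosome, Zfp967 gave 0 reads in all 6 samples, and Zfp973, which was not tested, gave 10, 8 and 8 reads at 6 months and 5, 4 and 6 reads at 16 months.

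Zfp951, at chr5:104813169-104860070 on the minus strand, was among the 5 tested members with the largest negative fold changes. It gave 63, 53 and 83 reads at 6 months and 34, 43 and 49 reads at 16 months. These were 1.34, 1.77 and 1.98 CPM against 1.03, 1.37 and 1.43 CPM, and the ages overlapped. The log2 fold change was -0.40 (SE 0.20, edgeR adjusted p = 0.336).

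Zfp945 was the first member outside the threshold. It lies at chr17:22846697-22867134, on the minus strand, at the end of the cluster of 11 members, and gave 2063, 1417 and 1970 reads at 6 months and 920, 1219 and 1109 reads at 16 months. These were 44.0, 47.2 and 47.0 CPM against 27.8, 38.9 and 32.5 CPM, so that all older samples were lower. The log2 fold change was -0.48 (SE 0.10, edgeR adjusted p = 0.0535), and 9 of 16 alternative fits called it, among them DESeq2's Wald test. All 11 members of this cluster, which all passed the filter, had a negative fitted log2 fold change, with a median of -0.15. Of them 0 were called, where 1.67% of all tested genes were. In edgeR 1 had an unadjusted p under 0.05, against 17.4% of all tested genes. DESeq2's Wald test called 1, against 2.67% of all genes it gave an adjusted p. With the GC and length offsets, 7 of 11 were negative and their median was -0.06.

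These 11 genes also showed how unequal the older samples were. Relative to the mean at 6 months, 10 of 11 were lower in 16-month replicate 1, with a median of -0.35 on the log2 scale, and 11 of 11 in 16-month replicate 3, with a median of -0.19. In 16-month replicate 2 only 4 of 11 were lower, with a median of 0.04. The same order held for all 69 tested members, whose median deviation was -0.18 in 16-month replicate 1, -0.10 in replicate 3 and 0.08 in replicate 2. It held at smaller size for the 267 tested genes of Zfp1 to Zfp799, with medians of -0.026, -0.024 and 0.024 in these replicates. After TMM normalization the medians over all tested genes lay within 0.01 of 0 in every sample.

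The exons of the tested members are poor in G and C, with a median GC content of 40.8% against 50.2% over all tested genes, and deviations from the mean of the same age went with GC content across all genes in 16-month replicate 1 (Pearson's r = 0.600 over 16904 genes) and, in the opposite direction, in 16-month replicate 2 (r = -0.592). In the other 4 samples r was between -0.130 and 0.163. The 3 deviations of an age sum to 0 for each gene, so the values of 16-month replicates 1 and 2 are not independent of each other. Across the 62 tested members outside the chromosome 4 cluster, which share libraries and depth, log2 fold change and GC content were correlated with r = 0.454 (Spearman's rho 0.524), given as a description. Within the single older samples this r was 0.643, -0.254 and 0.373 for replicates 1, 2 and 3. Without 16-month replicate 1, 4 members were called higher (Zfp871, Zfp933, Zfp984 and Zfp991) and 3 lower (Zfp945, Zfp970 and Zfp990), where 2.94% of all tested genes were called higher and 2.79% lower. Without 16-month replicate 2, 14 were called and all were lower, where 6.32% of all tested genes were called higher and 6.4% lower. The part of these libraries' GC content in the members' differences was not tested beyond the offsets given above.

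**Figure D3:**
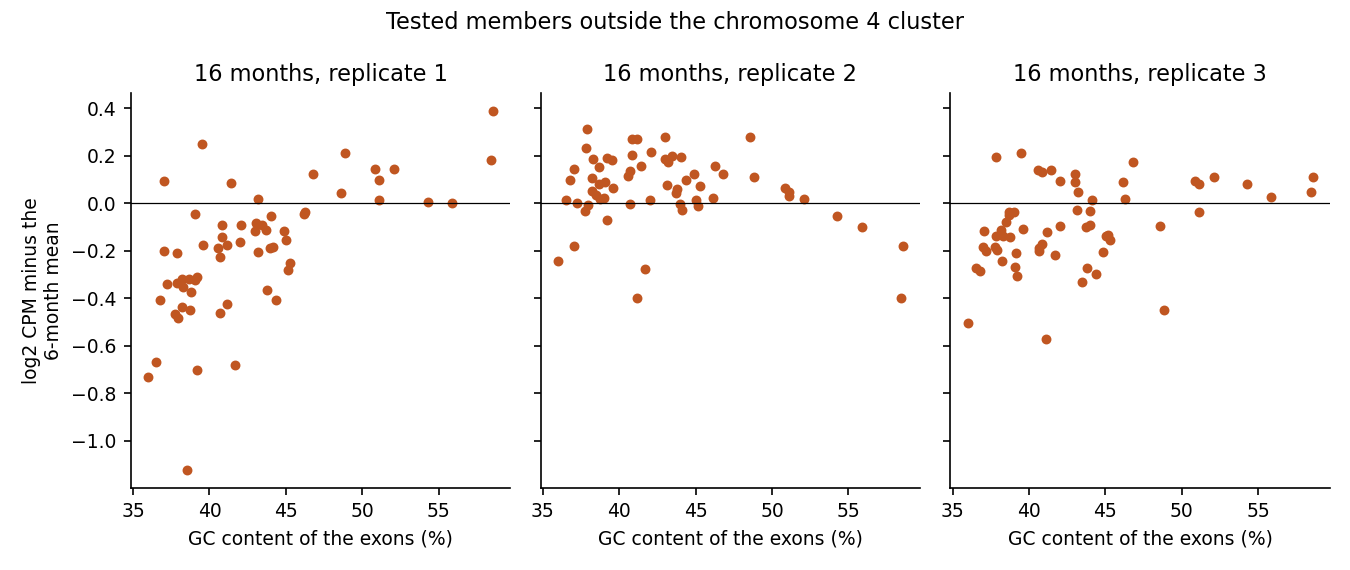
Difference of log2 CPM from the mean of the 6-month samples (vertical axis) against the GC content of the exons in percent (horizontal axis) for the 62 tested members outside the chromosome 4 cluster, with 1 panel per 16-month replicate and 1 point per gene. Members with low GC content lie mostly below 0 in replicates 1 and 3 and mostly above 0 in replicate 2.

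Genes with and without a KRAB pattern differed in the same feature. The 58 tested members with the pattern had a median GC content of 40.1% and a median log2 fold change of -0.08, with 40 below 0. The 10 tested coding members without it had a median GC content of 51.6% and a median log2 fold change of 0.07, with 3 below 0. With the GC and length offsets the medians were -0.01 and 0.03.

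Per length, the most abundant members were Zfp938 with 15.3 CPM per kb of exon and Zfp869 with 13.4 CPM per kb, averaged over all 6 samples. Zfp950, Zfp871, Zfp948, Zfp943, Zfp932, Zfp956, Zfp941 and Zfp944 followed with 8.74 to 7.26 CPM per kb. The median of the tested members was 3.05 CPM per kb, and Zfp990 was at 0.166 CPM per kb at 6 months. None of these 10 genes was called. Their fold changes ranged from -0.18 (SE 0.11) for Zfp938 to 0.11 (SE 0.082) for Zfp871 on the log2 scale.

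Members with a known role were measured well enough to compare, except 1. Zfp809, which recognises the primer binding site of retroviruses and silences them, was at 9.90 ± 0.446 CPM at 6 months and 10.1 ± 0.459 CPM at 16 months (log2 fold change 0.03, SE 0.074, edgeR adjusted p = 0.894). Zfp932, a repressor of endogenous retroviruses whose transcript matches Gm15446 over 93.9%, was at 26.7 ± 1.68 and 24.5 ± 3.12 CPM (-0.12, SE 0.092, edgeR adjusted p = 0.547). Both overlapped between the ages (SD, n = 3 each).

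Zfp830, needed for cell survival in the early embryo and without a KRAB pattern, was at 11.1 ± 0.398 CPM at 6 months and 11.7 ± 1.56 CPM at 16 months (log2 fold change 0.08, SE 0.095, edgeR adjusted p = 0.708). Zfp827, whose human counterpart recruits a nucleosome remodelling complex to telomeres, gave 50.3, 49.6 and 48.9 CPM at 6 months and 54.8, 51.9 and 52.9 CPM at 16 months (0.10, SE 0.051, edgeR adjusted p = 0.337). All older samples of Zfp827 were higher, by a small amount. Zfp819, a KRAB gene known mainly from germ cells, gave 6, 3 and 7 reads and then 2 reads in each older sample, and was not tested.

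**Figure D4:**
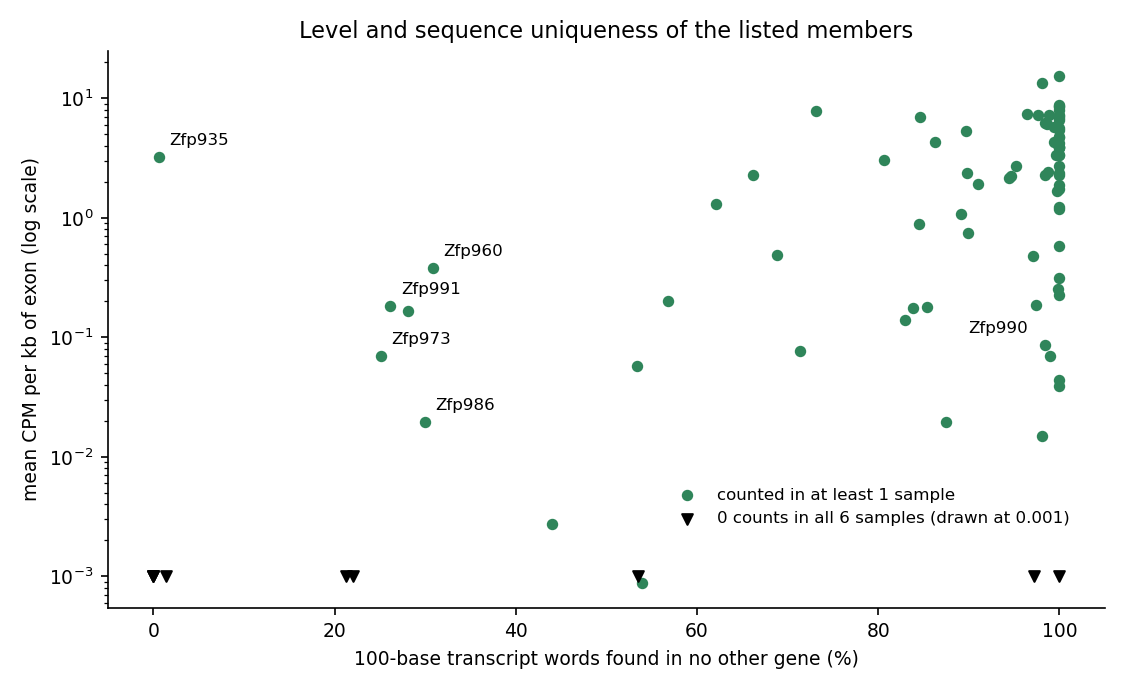
Mean CPM per kb of exon over all samples (vertical axis, log scale) against the share of 100-base transcript words that occur in no other annotated gene (horizontal axis, percent) for the 90 listed members, with triangles for the 9 members at 0 counts in every sample. Of these 9, 6 have fewer than 50% words of their own, while Zfp850 and Zfp936 lie at the right end.

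Sequence shared with other genes went with members that had no counts. Of the 9 members at 0 in all 6 samples, 6 had fewer than 50% words of their own, against 3 of 69 tested members. For Zfp965 to Zfp969 and Zfp987 a count of 0 therefore does not show that the gene was silent. Zfp850 and Zfp936, both on chromosome 7, were at 0 although 100% and 97.1% of their words were their own. Zfp935 was an exception in the other direction. Only 0.653% of its words were its own, since it matched Gm49359 over its whole transcript, and yet it gave between 153 and 237 reads per sample.

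The genes of the KRAB silencing machinery were listed beside the members. Of 30 such genes, 30 were tested and 0 were called, where 1.67% of all tested genes were. In edgeR 2 had an unadjusted p under 0.05, against 17.4% of all tested genes. DESeq2's Wald test called 0, against 2.67% of all genes it gave an adjusted p. Their median log2 fold change was 0.02, with 12 below 0. With the GC and length offsets 1 was called, lower, where 7.04% of all tested genes were.

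Summed markers of some other tissues differed between the ages in these samples. The libraries held 29797253 to 46519280 counted reads each at 6 months and 31741175 to 34399669 at 16 months, so depth overlapped. Of the marker lists, 5 of 8 thalamus genes and 3 of 6 dentate gyrus genes were called higher at 16 months, with summed levels of 79.8 to 84.7 CPM against 106 to 114 CPM and of 57.3 to 59.5 CPM against 78.4 to 82.5 CPM. In the erythroid list 1 of 4 and in the choroid plexus list 1 of 6 genes were called higher, with sums of 23.7 to 26.5 against 39.0 to 44.3 CPM and of 16.98 to 18.3 against 25.3 to 28.2 CPM. Of the GABAergic neuron and astrocyte lists 1 of 6 and 1 of 5 genes were called lower, Pvalb and Gfap, with sums of 835 to 856 against 861 to 917 CPM and of 1459.6 to 1486 against 1485 to 1603 CPM. In the excitatory neuron, oligodendrocyte, microglia and endothelium lists 0 were called in edgeR. Over all tested genes 0.783% were called higher and 0.888% lower. No marker in any list was at 0. The summed excitatory neuron list, which marks the labelled cortex, was at 1445 to 1537 CPM and 1462 to 1746 CPM. The part of these tissues in the members' values was not tested.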

How the data were processed

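The deposited files hold raw counts of reads per Ensembl gene, 1 file for each of 3 samples of 6 months and 3 of 16 months, made by the authors. Their methods name fastq-mcf, STAR in 2-pass mode on mm10 and HTSeq, whereas the submitters' processing notes name CASAVA 1.8.2, STAR 2.3.0e and featureCounts 1.5.0-p1. The strand setting is not given in the sources used here. Summary lines of unassigned reads were left out of totals and tests.

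Members were the symbols Zfp800 to Zfp999 in GENCODE (36602 of 38355 identifiers matched). The members and all lists were chosen with earlier results of these data known. Counts were tested with edgeR 4.0.16 (TMM, filterByExpr, quasi-likelihood test, Benjamini-Hochberg adjustment over all 17120 tested genes, threshold 0.05) in R 4.3.3, with age alone in the model. Nothing beyond the labels shows how the samples relate, so p-values measure only the spread between them. Log2 CPM used a prior count of 2. Intervals of ratios are exact conditional ones of summed counts and, like floors of 3 counts, do not cover more than counting error, because PCR copies of a molecule could not be recognised. Near-identical transcripts were searched with blastn 2.17.0, and words of 100 bases were compared over annotated transcripts, not over the genome.

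Named were all called members, all members of the cluster of Zfp990, the 10 most abundant per kb of exon, the 5 largest fold changes in each direction, 6 genes with known roles (Zfp804a among them, outside the naming rule), and copies and neighbours of Zfp990 and Zfp986. Alternatives were 2 other normalizations, 2 other filters, the robust fit, DESeq2 1.42.0 with and without independent filtering, the replicate block, GC and length offsets with and without it, and each sample left out. The fit was tested on simulated data.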

Additional observations from a re-analysis of the deposited data

How the results depend on the processing

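The main fit called 286 of 17120 genes, 2 of 69 members and 1 of 7 tested members of the chromosome 4 cluster. It called 1 of 267 genes of Zfp1 to Zfp799 and 0 of 30 genes of the silencing machinery. No filter gave 648 of 27569 genes, 4 of 81 members and 2 of 14 in the cluster. At least 10 counts in every sample left out Zfp990 and gave 1 of 66 members and 0 of 5 in the cluster. DESeq2's Wald test called 470 of the 17623 genes it gave an adjusted p. GC and length offsets gave 2506 of 17120 genes, 9 of 69 members and 5 of 7 in the cluster. They also gave 17 of 267 genes of Zfp1 to Zfp799 and 1 of 30 of the machinery. Offsets with the replicate block gave 3460 of 17120 genes, 12 of 69 members, 5 of 7, 28 of 267 and 5 of 30 in the same order. Leaving out each sample in turn, with 17287 to 17377 genes tested, gave 48 to 2211 genes, 1 to 14 of 69 members and 1 to 4 of 7 in the cluster. These fits gave 0 to 38 of Zfp1 to Zfp799, with 267 or 268 tested, and 0 to 2 of the machinery. The counts were highest without 16-month replicate 2, except in the cluster, where the highest was without 16-month replicate 1. The cause of these differences was not tested.

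Samples with the same replicate number share only that number. Their deviations from the age means correlated with r = 0.180, 0.0958 and 0.0351 for numbers 1, 2 and 3. Of the 6 samples, 5 correlated best with their own number. The deviations of an age sum to 0 for each gene, so these correlations are not independent and do not show a pairing. Under the replicate block, 783 of 17120 genes and 4 of 69 members were called. Of the cluster 2 of 7 and of Zfp1 to Zfp799 2 of 267 were called.

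The median log2 fold change of members was -0.06 in the main fit. Over the alternatives it ranged from -0.14 without 16-month replicate 2 to 0.003 with GC and length offsets. These moves were within the spread between samples. That spread was wider than the distance of the median from 0, so it cannot show that the shift is stable. Of 382 alternative values for 24 named genes, 342 stayed on their side of the threshold, 36 newly passed it, 4 (all of Zfp970, without single samples) no longer did, and none changed sign while called. Adding symbols with a letter after the number, RefSeq names, or chaining clusters at 200 or 1000 kb called the same number. With words of 50 in place of 100 bases, the median share of own words in the 9 members at 0 was 6.88% in place of 21.3%. Depth limits the members with few reads: at a floor of 3 counts, differences below 0.0640 to 0.1 CPM were not detectable.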

Other observations

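The 6 genes of the same number range with a letter after the number fall outside the strict rule. Zfp804a, whose human counterpart is a candidate gene for schizophrenia, gave 910, 611 and 908 reads at 6 months and 746, 820 and 878 reads at 16 months, with a fitted level at 16 months of 1.21 times that at 6 months (edgeR adjusted p = 0.102). Zfp804b, Zfp874a, Zfp874b, Zfp955a and Zfp955b were not called either. Zfp953, the only annotated member without a line in the counts, entered the domain, cluster and sequence descriptions but no comparison of the ages.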
